A study of Strongylocentrotus purpuratus with 191 samples.

Results

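The gene described here is tbr, the T-brain gene of the purple sea urchin Strongylocentrotus purpuratus, 1 of 74 genes in the normalized table of a custom expression panel. It was read by 6 of the 336 normalized probes, and the same 6 were found by name among the 384 gene probes of the non-normalized table. tbr was taken up because an earlier pass over these data had found its differences between male parents to be the largest of the panel, so those differences are given as descriptions without a test. Embryos of 32 crosses, made from 8 females and 8 males, were raised to mid-gastrula at 12C, 15C or 18C in artificial sea water, with no other treatment. The crosses fell into 2 blocks, labelled 3 and 4, and in each block 4 females were each mated to the same 4 males. Each cross was grown in 2 replicate cultures at each temperature, 191 cultures in all, of which 64 grew at 12C, 63 at 15C and 64 at 18C. The cross of female C4 with male D4 had 1 culture at 15C. Cultures were sampled at times of 36.85 to 38.12 at 12C, 27.65 to 29.05 at 15C and 22.53 to 23.77 at 18C. The unit is not given in the sources used here, and temperature and sampling time cannot be told apart. Parents carry a letter and the number of their block, a female and a male of one name are not the same animal, and each parental value rests on a single animal. Each block had a plate of its own, and plate effects cannot be told apart from those of the block. On both plates 12C lay in rows A to C, 18C mostly in rows C to F and 15C mostly in rows F to H. Temperature and plate row therefore cannot be fully told apart. RNA came from whole embryos, in which fewer skeletogenic cells and less tbr RNA per cell cannot be told apart.

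tbr encodes a T-box transcription factor of the primary mesenchyme cells, which descend from the large micromeres, enter the blastocoel and build the larval skeleton. In the textbook network of this species the maternal nuclear beta-catenin and Otx inputs switch on Pmar1, a repressor, in the micromeres. Pmar1 represses HesC, itself a repressor of tbr, Ets1, Alx1 and delta, so that these genes are transcribed in the skeletogenic lineage. Ets1 is a further activator, and embryos in which tbr is knocked down fail to form a normal skeleton.

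The probes are oligonucleotides of an Illumina DASL assay, in which short primers are extended and ligated on cDNA before amplification and hybridisation to bead arrays. By their names, probes 656, 178 and 1893 lie in exon 1 of tbr, probe 1955 in exon 4, and probes 1850 and 1711 in exon 6. The sequences of the 3 exon 1 probes and of the exon 4 probe are shown, because these 4 include every tbr probe that differed widely between crosses and 1 exon 1 neighbour that did not. The letters follow the deposited table, which does not state the strand, and no base is singled out.
656: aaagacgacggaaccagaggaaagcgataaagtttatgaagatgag
178: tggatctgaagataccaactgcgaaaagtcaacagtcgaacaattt
1893: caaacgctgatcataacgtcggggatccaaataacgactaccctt
1955: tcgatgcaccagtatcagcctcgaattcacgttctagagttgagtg
Probe 656 is 46 bases long with 41.3% G or C, probe 178 is 46 bases with 39.1%, probe 1893 is 45 bases with 46.7% and probe 1955 is 46 bases with 47.8%. Over the whole panel, probes ran from 39 to 51 bases and from 29.8% to 61.9% G or C. None of the 4 therefore lay at an edge of the panel in length or base composition.

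All 6 probes gave signal on both plates. Their mean height over the median of the negative controls of the same array, in log2 units before normalization, ran from 2.33 for probe 178 to 3.39 for probe 1955 in block 3. In block 4 it ran from 3.61 for probe 656 to 5.40 for probe 1955. A probe was called detected in a culture where fewer than 0.05 of the negative controls of that array reached its value. By this measure 4 of the probes were detected in every culture. Probe 1893 was detected in 95 of 96 cultures of block 3 and in all of block 4, and probe 656 in all 96 of block 3 but in 80 of 95 of block 4. The height of probe 656 in block 4 had an SD of 1.46 over cultures, whereas the SDs of the other 5 probes there ran from 0.22 to 0.44. The normalized values used below are log2 values that the authors centred on 0 for each probe on each plate, so they compare crosses within a block and not levels between blocks or between probes.

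As the mean of its 6 probes, tbr was lowest in the offspring of male D3 in block 3 and of males A4 and B4 in block 4. In block 3 the offspring of male D3 lay at a normalized value of -0.22 ± 0.07 (SD over 4 crosses), below those of A3 at 0.04 ± 0.06, B3 at 0.05 ± 0.08 and C3 at 0.13 ± 0.08. Over cultures, male D3 gave a lowest value of -0.67, a median of -0.24 and a highest of 0.01, against -0.09, 0.14 and 0.41 for male C3. Each of the 4 crosses of D3 lay below each of the 4 crosses of C3, and the range between the means of D3 and C3 was 0.35, or 1.27-fold. In block 4 the offspring of male D4 lay at 0.26 ± 0.10 and those of C4 at 0.16 ± 0.13, above those of B4 at -0.15 ± 0.14 and A4 at -0.26 ± 0.22 (SD over 4 crosses). Over cultures, male A4 gave -0.91, -0.31 and 0.32 as lowest, median and highest values, and male D4 -0.01, 0.27 and 0.50. The range between D4 and A4 was 0.53, or 1.44-fold. In both blocks the neighbouring pairs C3 and B3, B3 and A3, D4 and C4, and B4 and A4 differed by less than the SD over the crosses of at least 1 of the pair. For comparison, the SD between replicate cultures within a cross and temperature, pooled over pairs, was 0.12. It describes single cultures, whereas the ranges above are between means of 4 crosses. Over the panel, 56 of 74 genes (75.7%) had an adjusted p under 0.05 in limma for this comparison of males. Because tbr was chosen by it, nothing is read from that share. The median normalized value of the panel was also highest for the males highest in tbr, at 0.09 for C3 against -0.03 for D3 and at 0.07 for D4 against 0.00 for A4. The lowest medians were those of other males, A3 in block 3 at -0.05 and C4, second highest in tbr, in block 4 at -0.04. With array medians removed the range of tbr was 0.28 in block 3, from A3 to D3, and 0.47 in block 4, from C4 to A4.

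**Figure D1:**
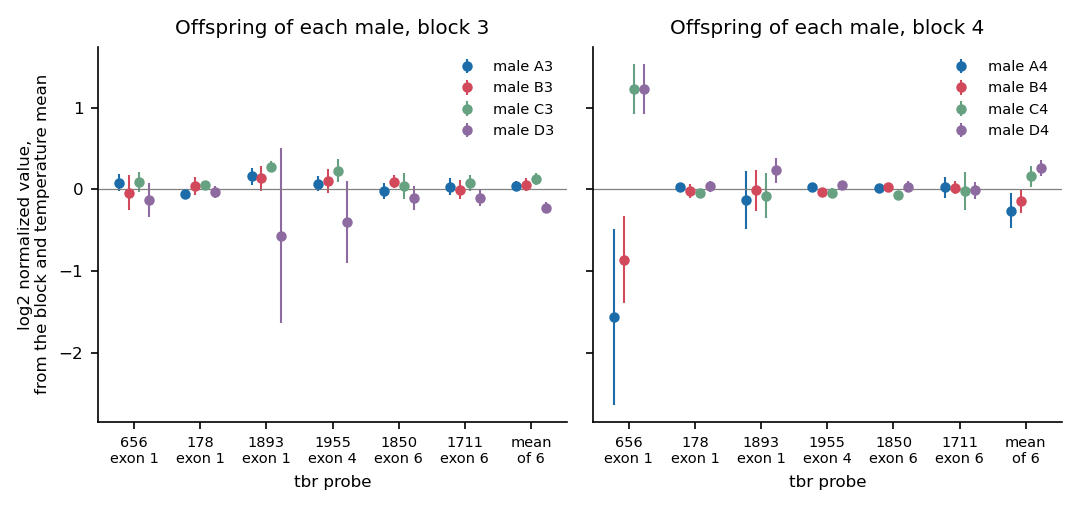
Normalized value (log2, from the mean of the block and temperature) of the offspring of each male, for each of the 6 tbr probes and for their mean. Points are means over 4 crosses and bars are SDs over the same crosses. In block 4 the males separate widely on probe 656 alone, with C4 at 1.23 and A4 at -1.56, and in block 3 male D3 lies low on probes 1893 and 1955 with wide bars.

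The probes did not share these differences. In block 4, probe 656 put the offspring of male A4 at -1.56 ± 1.08 and of male B4 at -0.86 ± 0.53, and those of C4 at 1.23 ± 0.30 and D4 at 1.22 ± 0.30 (SD over 4 crosses). The range between C4 and A4 was 2.79, with 11 of the 24 cultures of A4 called detected on this probe, so no fold is given. On the remaining 5 probes the range between males in block 4 was 0.05 for 1711, 0.09 for 178, 0.09 for 1955, 0.11 for 1850 and 0.37 for 1893. The mean of these 5 probes had a range of 0.12 and put male A4 at -0.01 ± 0.10 and male D4 at 0.07 ± 0.05. That order was D4, B4, A4 and C4, so male C4, the second highest on all 6 probes, was the lowest without probe 656. Probe 178, named for the same exon, had A4 at 0.03 ± 0.03 and C4 at -0.05 ± 0.06. The difference among the males of block 4 in the mean of all probes was thus carried by 1 probe of 6.

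On probe 656 the offspring of females A4, C4 and D4 differed in value with the male. In block 4 all 8 crosses of males C4 and D4 were high, with means from 0.86 to 1.65. The 3 crosses of male A4 with females A4, C4 and D4 were low, with means of -1.72, -2.30 and -2.23. The cultures of female C4 with male A4 gave a lowest value of -2.62, a median of -2.28 and a highest of -2.11. The 3 crosses of male B4 with the same females had means of -1.07, -1.20 and -1.11. Their cultures overlapped those of male A4, since the highest culture of female A4 with male A4 was at -1.03 and the lowest of female D4 with male B4 at -2.43. Offspring of female B4 differed from these, with means of 0.01 for male A4 and -0.07 for male B4. The 6 cultures of female B4 with male A4 gave -0.66, -0.07 and 0.80 as lowest, median and highest values, and those with male B4 gave -0.98, -0.05 and 0.68. Among the offspring of females A4, C4 and D4, every culture sired by A4 or B4 lay at or below -0.23 and every culture sired by C4 or D4 at or above 0.66. Among the offspring of female B4 the cultures overlapped, since the lowest culture with male C4 was at 0.59.

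**Figure D2:**
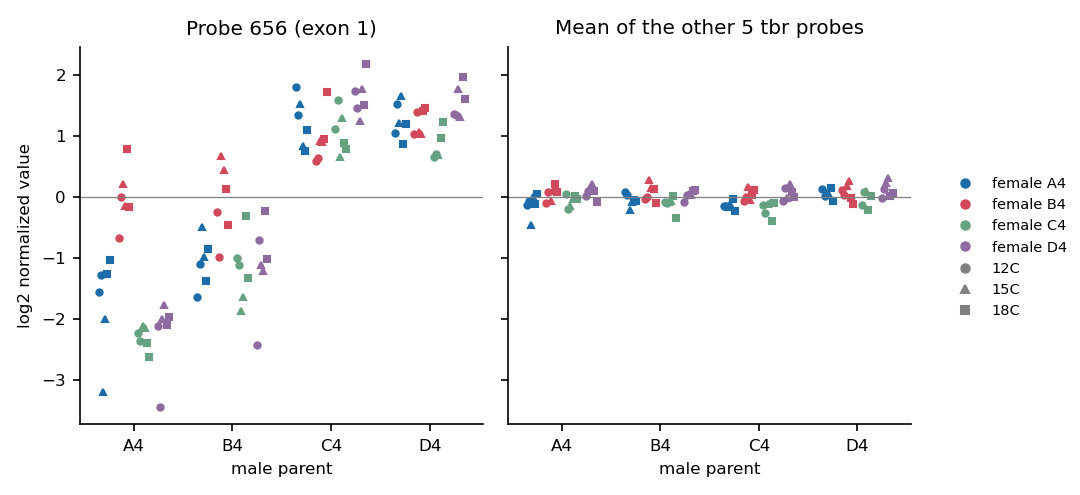
Normalized value (log2) of each culture of block 4 by male parent, for probe 656 at left and for the mean of the remaining 5 tbr probes at right, with female parents in colours and temperatures as marker shapes. On probe 656 the offspring of female B4 lie above those of the other females for males A4 and B4, and the 5 remaining probes give the 4 males nearly the same values.

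The difference between these males also stood in the values before normalization. The mean log2 signal of probe 656 in block 4 was 10.04 for male A4, 10.74 for male B4, 12.93 for male C4 and 12.95 for male D4. Over the negative controls these were heights of 2.05 ± 1.18, 2.71 ± 0.74, 4.86 ± 0.26 and 4.86 ± 0.34 (SD over 24, 24, 24 and 23 cultures). The probe was detected in 11 of 24 cultures of male A4, 22 of 24 of male B4 and in every culture of males C4 and D4. With male A4, it was detected in 0 of 6 cultures of female C4, 1 of 6 of female D4 and 4 of 6 of female A4, but in 6 of 6 of female B4. In block 3 the probe was detected in every culture, and its range between males there was 0.22.

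Compared with all 336 probes of the panel, probe 656 had the widest range between males in block 4, and the next was a probe of gataC with 1.93. The median range over probes was 0.19 in both blocks. In block 4, 4 probes had a range above 1 log2 unit and in block 3 the number was 3. None of the other tbr probes was among them. Since tbr was chosen on the mean that includes probe 656, these ranks are descriptions.

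In block 3 the lowest values of male D3 fell on different probes with different females. Probe 1893 had a range between males of 0.84 and put male D3 at -0.57 ± 1.07, a spread over crosses wider than the range itself. Its cross with female B3 had a mean of -2.14 ± 0.56 (SD, n = 6 cultures), with a lowest value of -3.18, a median of -1.93 and a highest of -1.66. The crosses of D3 with females A3, C3 and D3 lay at -0.03, 0.19 and -0.29 on the same probe. The 12 crosses of the 3 remaining males had means between -0.02 and 0.35. The cross of female B3 with male D3 was the lowest on probe 1893. That of D3 with D3 and, narrowly, that of A3 with D3 also lay below all 12 of these crosses.

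Probe 1955, in exon 4, had a range between males of 0.62 in block 3 and put male D3 at -0.40 ± 0.50. On it the crosses of D3 with females C3 and D3 were low, at -0.94 ± 0.29 and -0.67 ± 0.56 (SD, n = 6 cultures each), and those with females A3 and B3 were at -0.15 and 0.18. The 12 crosses of the remaining males lay between -0.04 and 0.38, so the cross of A3 with D3 also lay below all of them. Female B3, low with D3 on probe 1893, was not low with D3 on probe 1955. The cross of female D3 with male D3 was also the lowest of the 16 crosses on probe 656, at -0.37, followed by A3 with B3 at -0.23. In heights over the negative controls, probe 1893 stood at 1.12 ± 0.51 in the cross of B3 with D3 and at 3.23 ± 0.21 in the cross of A3 with D3. Probe 1955 stood at 2.37 ± 0.33 in C3 with D3 and at 3.76 ± 0.18 in B3 with D3.

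On the remaining 4 probes the range between males in block 3 was 0.11 for 178, 0.18 for 1711, 0.20 for 1850 and 0.22 for 656. Male D3 was the lowest on 1711, 1850 and 656, at -0.10 ± 0.11, -0.11 ± 0.15 and -0.13 ± 0.21, within 1 SD over crosses in each case. On probe 178 male A3 was the lowest. Over the mean of probes 178, 1850 and 1711, chosen after the probe values were seen, the range between males was 0.14 in block 3 and 0.07 in block 4. These ranges are against 0.35 and 0.53 with all 6 probes, and the SD between replicate cultures of the mean of these 3 probes was 0.13. At 12C in block 3 the same 3 probes had a wider range of 0.31, against 0.46 with all 6 probes. There the crosses of C3, the highest male, did not overlap those of D3, the lowest. At 15C their range was 0.12, from A3 to D3, and at 18C 0.14, from B3 to A3, both with overlap. Probe 1711 alone had a range of 0.48 at 12C, from C3 to D3 without overlap.

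**Figure D3:**
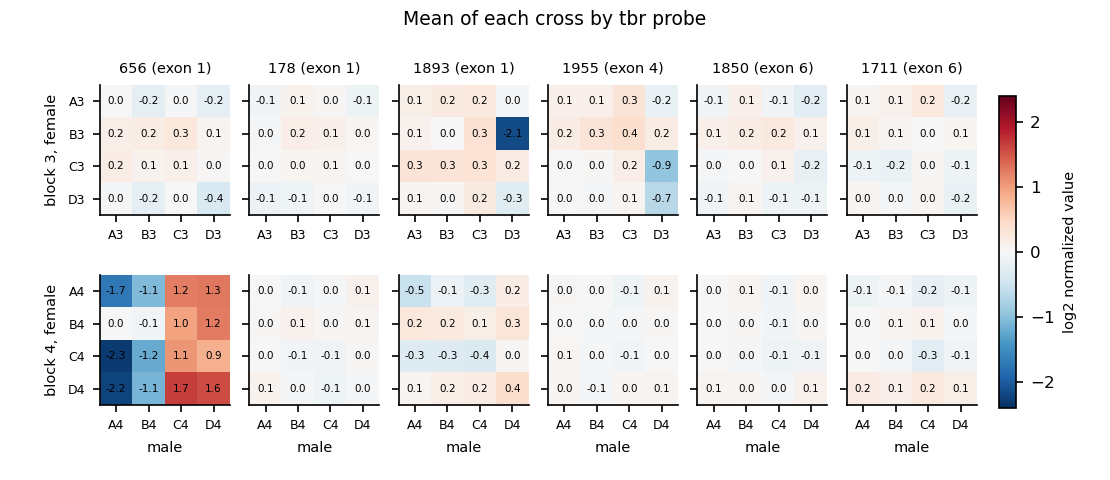
Mean normalized value (log2) of each cross for each tbr probe, with females in rows and males in columns, for block 3 above and block 4 below. Colour runs from blue below 0 to red above 0. Probe 656 is low in the columns of males A4 and B4 except in the row of female B4, and in block 3 single cells stand out in the column of male D3, female B3 on probe 1893 and females C3 and D3 on probe 1955.

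Whether crosses departed from the sum of their female and male values was tested with a moderated F test in limma over the 96 cross-by-temperature means. This scatter between crosses was also the denominator of the comparison that chose tbr, so neither the gene-level value nor those of its probes are independent of the choice. As the mean of its probes, tbr gave F = 1.93 (adjusted p = 0.997), and limma called 0 of 74 genes (0.00%), with 2 genes, tbr among them, at an unadjusted p under 0.05. Probe by probe, limma called 9 of 336 probes (2.68%), and 3 of them were tbr probes. These were 1893 (F = 12.7, adjusted p = 1.94e-12), 656 (F = 7.13, adjusted p = 1.73e-07) and 1955 (F = 3.36, adjusted p = 0.00906). For probes 178, 1850 and 1711 the F values were 1.01, 0.59 and 0.66, each with an adjusted p of 0.9998. The gene-level call depended on the scale, with adjusted p of 0.00399 and 0.00025 in the non-normalized values, centred or quantile normalized, and of 5.32e-05 with array medians removed.

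Variance shares estimated with lme4 are given for the same values as a description. For tbr as a mean of probes, males took 59.5% of the variance over both blocks and differences between replicate cultures 20.3%. For probe 656 in block 4, males took 77.2% and the combination of female and male 11.4%. For probe 1893 in block 3, males took 19.1% and the combination of female and male 61.8%. For probe 1955 in block 3 the male share was 36.2%, the female share 20.5% and the share of the combination 16.9%. For the mean of probes 178, 1850 and 1711 over both blocks, males took 7.88%, females 13.8% and differences between replicate cultures 76.6%.

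Across the 16 crosses of a block the probes ran together only in part. The pairwise Pearson correlation of cross means among probes 178, 1850 and 1711 was between 0.32 and 0.69 in block 3 and between 0.07 and 0.40 in block 4. Probe 656 in block 4 correlated at -0.07 with 178, -0.06 with 1955, -0.30 with 1850, -0.09 with 1711 and 0.47 with 1893. Probe 1893 in block 3 correlated with the 5 other probes at values between -0.10 and 0.10. These points share arrays, and correlations are given without a test.

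In block 4 the order of tbr was D4, C4, B4 and A4 at each of 12C, 15C and 18C, with ranges of 0.54, 0.63 and 0.41. In block 3 male D3 was the lowest at each temperature, and the ranges were 0.46, 0.33 and 0.28. The order there was C3, B3, A3 and D3 at 12C and 18C but A3, C3, B3 and D3 at 15C. At 12C the 8 cultures of male A4 gave -0.55, -0.33 and 0.07 as lowest, median and highest values, and the 8 of male D4 gave 0.01, 0.27 and 0.34. At 18C male A4 gave -0.45, -0.28 and 0.32 and male D4 gave -0.01, 0.23 and 0.35. The cultures of these males overlapped at both temperatures. On probe 656 the range between males of block 4 was 2.99 at 12C, 2.83 at 15C and 2.69 at 18C. The temperature response did not pass the test for a difference between males (F = 1.21, limma adjusted p = 0.996) or between females (F = 1.90, adjusted p = 0.471). Limma called 0 of 74 genes (0.00%) in each of these 2 tests, with 2 and 7 genes at an unadjusted p under 0.05. Probe by probe, no tbr probe was called in either, where limma called 0 of 336 (0.00%) between males, with 10 at an unadjusted p under 0.05, and 1 of 336 (0.298%) between females.

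**Figure D4:**
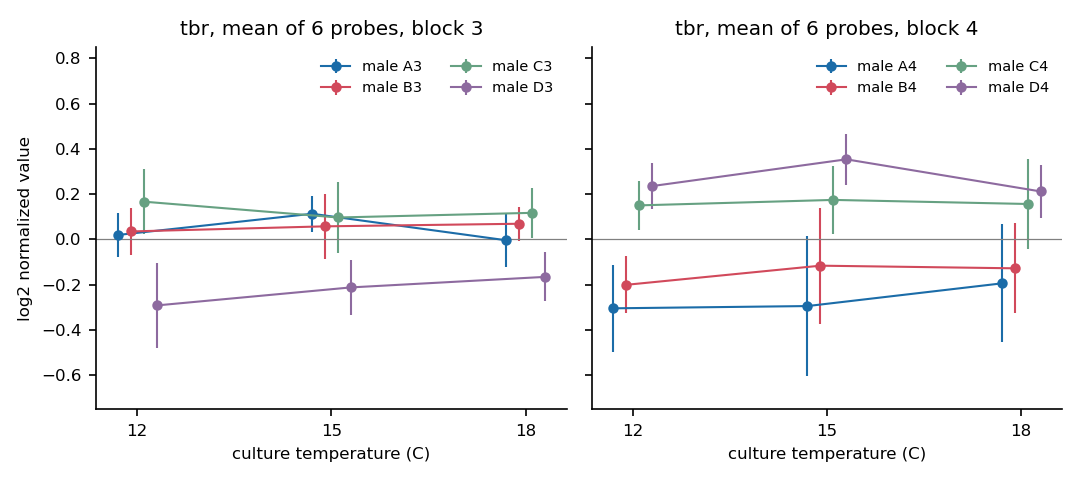
Normalized value (log2) of tbr, as the mean of 6 probes, in the offspring of each male at 12C, 15C and 18C, with block 3 at left and block 4 at right. Points are means and bars SDs over the cultures of each male at each temperature. Male D3 is lowest throughout block 3, and males D4 and C4 stay above males B4 and A4 in block 4.

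No difference of tbr between temperatures passed the test. In block 3 the cultures at 12C gave -0.67, 0.01 and 0.38 as lowest, median and highest values of tbr, those at 15C gave -0.42, 0.03 and 0.41, and those at 18C gave -0.29, 0.01 and 0.27. In block 4 the corresponding values were -0.55, 0.03 and 0.36 at 12C, -0.91, 0.07 and 0.50 at 15C, and -0.50, 0.04 and 0.38 at 18C. The temperatures overlapped in both blocks, and in block 3 the values at 12C ran lower and higher than those at 18C. At 18C tbr was 0.03 ± 0.03 (SE) above 12C and was higher in 17 of 32 crosses (limma adjusted p = 0.455). At 15C it was 0.04 ± 0.03 above 12C and higher in 22 of 32 crosses (adjusted p = 0.728). From 15C to 18C the difference was -0.01 ± 0.03 (adjusted p = 0.847). Over the panel, limma called 13 of 74 genes (17.6%) for 18C against 12C, 3 (4.05%) for 15C against 12C and 3 (4.05%) for 18C against 15C.

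The value at 15C departed from the mean of 12C and 18C by 0.03 ± 0.02 (SE, adjusted p = 0.909), in a test in which limma called 0 of 74 genes (0.00%), with 4 at an unadjusted p under 0.05. The responses of the blocks did not pass the test of their difference (F = 0.12, adjusted p = 0.912), for which 12 of 74 genes (16.2%) were called. None of the 6 probes passed it either, the smallest adjusted p being 0.187 for probe 656, where 33 of 336 probes (9.82%) were called. For 18C against 12C, tbr gave 0.02 ± 0.03 in block 3 and 0.04 ± 0.04 in block 4 (SE).

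Probe by probe, 1 tbr probe was called between temperatures, which also differed in sampling time and, for most cultures, in plate row. Probe 178 fell by 0.10 ± 0.02 (SE) from 15C to 18C and was higher in 6 of 32 crosses (limma adjusted p = 0.00529), in a test that called 12 of 336 probes (3.57%). Within blocks the difference was -0.10 ± 0.03 in block 3 and -0.09 ± 0.03 in block 4 (SE). Its medians at 12C, 15C and 18C were -0.06, 0.03 and -0.05 in block 3 and 0.01, 0.02 and -0.04 in block 4. Its difference between 18C and 12C was -0.04 ± 0.02 (adjusted p = 0.288), and between 15C and 12C 0.06 ± 0.02 (adjusted p = 0.423). The remaining 5 probes gave differences between 18C and 15C from -0.02 to 0.03, with adjusted p from 0.740 to 0.927. None of the 6 probes was called for 18C against 12C, where limma called 30 of 336 probes (8.93%), or for 15C against 12C, with 2 of 336 (0.595%).

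**Figure D5:**
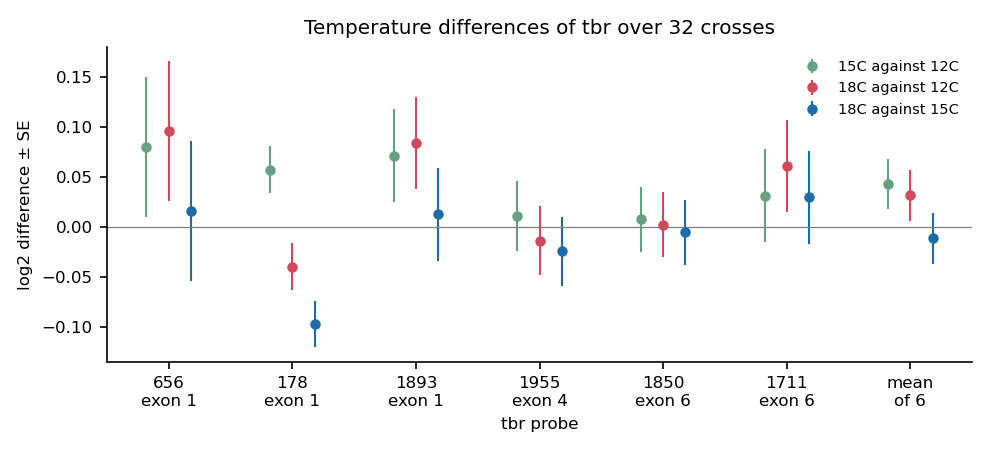
Difference between temperatures (log2, ± SE from limma over 96 cross-by-temperature means of 32 crosses) for each tbr probe and for the mean of 6 probes. Most bars reach 0 or lie near it. Probe 178 at 18C against 15C, at -0.10, was the 1 tbr probe called.

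The female parents differed for tbr by less than the males but passed the test. In block 4 the offspring of female B4 lay at 0.14 ± 0.11, those of D4 at 0.06 ± 0.34, of A4 at -0.06 ± 0.29 and of C4 at -0.14 ± 0.26 (SD over 4 crosses). In block 3 female B3 lay at 0.05 ± 0.23, C3 at 0.02 ± 0.13, A3 at 0.01 ± 0.12 and D3 at -0.08 ± 0.14. The crosses of the highest and the lowest female overlapped in both blocks, and the ranges between females were 0.13 in block 3 and 0.28 in block 4. The moderated F test over 32 cross means gave F = 5.87 (limma adjusted p = 0.00199), and 60 of 74 genes (81.1%) were called in the same test. Its denominator is the same scatter between crosses as in the comparison of males, by which tbr was chosen. The F of tbr between females is therefore not independent of that choice. The median normalized value of the panel was also highest for female B4 in block 4, at 0.07, and lowest for female C4, at -0.06, and with array medians removed the F of tbr was 1.27 (adjusted p = 0.327). In the non-normalized values, centred or quantile normalized, the adjusted p was 0.0908 and 0.131, and without replicate 1 it was 0.0622. Within blocks it was 0.0810 in block 3 and 0.0158 in block 4. Females also differed in mean culture stage, a score described below. In block 4 stage was lowest for C4, at 0.291 ± 0.027, and highest for D4, at 0.463 ± 0.024 (SD over 4 crosses). In block 3 it ran from 0.283 ± 0.021 for C3 to 0.401 ± 0.015 for B3. Array medians before normalization were 12.1 ± 0.09 for female C4 and 12.3 ± 0.07 for D4. Female parent, stage and signal level therefore cannot be fully told apart.

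Probe by probe, the female parents were called for 4 tbr probes, in a test that called 206 of 336 probes (61.3%). These were 1850 (adjusted p = 0.00246), 1711 (adjusted p = 0.00284), 1955 (adjusted p = 0.00832) and 178 (adjusted p = 0.0363). Probes 656 and 1893 did not pass, with adjusted p of 0.0973 and 0.0822. Of the 3 probes with narrow ranges between males, the mean over females ran from -0.06 for D3 to 0.10 for B3 in block 3 and from -0.05 for C4 to 0.06 for D4 in block 4.

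Culture stage, a score whose scale the labels do not state, was not tied to tbr by the test. Over 191 cultures, in a model that held cross and temperature, the slope of tbr was 0.18 ± 0.18 log2 units per unit of mean stage (SE, limma adjusted p = 0.778), where limma called 1 of 74 genes (1.35%). On the SD of stage within a culture the slope was -0.01 ± 0.40 (adjusted p = 0.980), where limma called 0 genes (0.00%) and 4 had an unadjusted p under 0.05. By probe, the slope on mean stage ran from -0.11 for 178 to 0.83 for 1711, none of them called among 3 of 336 (0.893%). Mean stage was 0.326 ± 0.049 in the offspring of male D3 and 0.342 ± 0.049 in those of C3, and 0.361 ± 0.090 for A4 and 0.341 ± 0.077 for D4 (SD over 4 crosses). These pairs of males bound the ranges of tbr. The SDs hold the stage differences between the 4 females, which all males of a block shared. They are therefore no measure of how firmly the males differ in stage. The arrays of males A4 and D4 had panel medians before normalization of 12.1 and 12.2.

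The mean of the 6 genes placed upstream of tbr in the network was 0.05 for male D4, -0.01 for C4, -0.02 for B4 and -0.02 for A4, which is the order of tbr. The values of C4, B4 and A4 differed by less than the SD over crosses, so no order is read among them. In block 3 the mean was 0.08 for C3, -0.01 for A3, -0.02 for D3 and -0.05 for B3, which was not the order of tbr. The panel median was also highest for D4, at 0.07, and for C3, at 0.09. The list holds repressors as well as activators, so its mean gives no direction of input to tbr. HesC, the repressor of tbr, stood at -0.01 for male A4, 0.06 for B4, -0.04 for C4 and -0.01 for D4 as offspring means. Ets1, an activator, stood at -0.01, 0.01, -0.10 and 0.10 for the same males, but its height over the negative controls was only 0.88 in block 3 and 1.46 in block 4, in log2 units. Pmar1, the micromere repressor, stood at -0.22 for A4, -0.02 for B4, 0.28 for C4 and -0.05 for D4. In block 3, HesC stood at -0.06 for A3, -0.02 for B3, 0.10 for C3 and -0.02 for D3. Ets1 stood at -0.05, -0.02, 0.09 and -0.01 and Pmar1 at 0.25, -0.24, 0.01 and -0.02 for the same males. These are descriptions, and their part in the values of tbr was not tested.

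Genes of the skeletogenic cells were set beside tbr from lists by role. Of 6 upstream genes (Pmar1, HesC, Ets1, otx, B-catenin and Blimp1-Krox), 0 were called for 18C against 12C in limma, with a median change of 0.04 against 0.01 over all genes, and otx had the largest at 0.07 ± 0.03 (SE, adjusted p = 0.124). Of 10 other regulators of the skeletogenic cells, 0 rose and 2 fell between 12C and 18C, where 10.8% of the panel was called higher and 6.76% lower. Erg, an ETS-family gene, fell by 0.15 ± 0.04 and FoxB, a forkhead gene, by 0.19 ± 0.05. The median of this list was 0.00. Of 11 skeleton and matrix genes, SpColl-ColAlpha, a collagen chain gene, rose by 0.17 ± 0.05, and 2 fell, C-lectin by 0.17 ± 0.04 and cyclophilin by 0.10 ± 0.02, with a median of 0.01. SM50 and Msp130, which encode a spicule matrix protein and a surface protein of skeletogenic cells, gave 0.01 ± 0.04 and -0.03 ± 0.03. In the test of female parents, 6 of 6, 9 of 10 and 11 of 11 genes of these lists were called, where 81.1% of the panel was. Their median F values were 5.02, 7.39 and 3.93 against 4.82 over all genes.

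The mean of the 10 other skeletogenic regulators was 0.11 ± 0.14 for male D4, -0.03 ± 0.10 for C4, -0.03 ± 0.08 for B4 and -0.05 ± 0.08 for A4 (SD over 4 crosses). The values of C4, B4 and A4 differed by less than these SDs, so no order is read among them. The panel median was also highest for D4 in block 4, at 0.07. In block 3 the mean of the list was 0.09 for C3, 0.01 for B3, -0.04 for D3 and -0.05 for A3, which was not the order of tbr. The part of these regulators in the values of tbr was not tested. The mean of the 10 skeletogenic markers was 0.02 for male A4, 0.03 for B4, -0.11 for C4 and 0.07 for D4, and in block 3 it was 0.06 for C3 and -0.01 for D3. Markers of endoderm stood at 0.03 for A4 and 0.04 for D4, and of oral ectoderm at -0.00 and 0.04. Those of pigment and other mesoderm stood at 0.05 for A4 and 0.08 for D4, at 0.19 for C3 and at -0.09 for D3. Of the skeletogenic markers, Alx1 lay at the level of the negative controls, with heights of 0.07 in block 3 and 0.05 in block 4, and ficolin had heights of 0.04 and 0.34, so neither informs on the cell type here. Msp130, P19 and cyclophilin had heights from 2.97 to 5.20.

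The genes whose pattern was most like that of tbr over the 96 cross-by-temperature means were Nk1 (Pearson r = 0.57), Wnt8 (0.51), Gsk-3 (0.50), FoxO (0.44) and delta (0.44). The median r over 73 genes was 0.29, and the lowest values were -0.04 for Lhx2, -0.16 for Dkk and -0.32 for SM30-E. With array medians removed, the values were 0.34 for Nk1, 0.34 for Wnt8, 0.24 for Gsk-3, 0.23 for FoxO and 0.20 for delta, and the median was -0.01. When tbr was read by probes 178, 1850 and 1711 alone and array medians were removed, the same genes gave -0.13, -0.29, -0.28, -0.26 and 0.00. The points share arrays, plate and depth of signal, and r is given without a test.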

How the data were processed

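Expression was measured in 191 gastrula cultures. Per the labels, RNA was labelled for the Illumina DASL assay, and the software was BeadStudio, per the submitters' processing notes. The authors' normalized table holds log2 values centred on 0 for each probe on each plate, as read from the values, and its method is not given in the sources used here. The deposited non-normalized table ran on a scale read as log2 intensity and was used for heights over 27 negative controls and for alternatives. The deposited series values equalled the normalized table (largest difference 0). Arrays were matched to cultures by their plate position, and 1 array column, marked as poor in a deposited note, belongs to no sample and was not used.

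Probes were averaged per gene. limma tests used 96 cross-by-temperature means (temperature, with cross as a fixed block, on 62 residual df; dam by sire on 60; dam or sire by temperature on 36), 32 cross means (dam, 18 df) or 191 cultures (stage, 154 df). P-values were adjusted by Benjamini-Hochberg over 74 genes or, probe by probe, over 336 probes, with a threshold of 0.05. tbr, its probes and the lists were chosen with earlier results of these data known. Named genes were tbr, the 5 most and 3 least correlated with it, and called list members; network genes with levels in males were picked for their known roles. Scripts were tested on simulated data. The labels do not say whether replicates were separate fertilizations, and replicate numbers did not pair cultures (median correlation of deviations -0.00, over 0.1 in 35 of 94 pairs). For arrays the number of cultures limits the precision. No 2 arrays were identical (highest correlation 0.910). tbr was not matched in the reference gene table, so no coordinates are given. Alternatives changed the table, normalization, probe summary, replicates, blocks and covariates. Tests ran in limma 3.58.1 and variance shares in lme4 1.1.37 under R 4.3.3. Descriptions were made with pandas 2.3.3 and numpy 2.4.6 in python 3.11.15, and figures with matplotlib 3.10.9.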

Additional observations from a re-analysis of the deposited data

Results flagged for a closer look

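Within groups of 4 cross means or 8 cultures, a value was singled out where its gap to the nearest other value exceeded Dixon's 95% critical share of the range of the group. Of 160 groups tested, 10 held such a value, where chance gives about 1 in 20 groups. No explanation was tested for any of them.

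On probe 656, the cross of female B4 with male B4 lay at -0.067, above the other 3 crosses of male B4, which ran from -1.20 to -1.07. On probe 1893, female B3 with male D3 lay at -2.14, below the crosses of the same female with the other males at -0.02 to 0.35. Female C3 with male D3 lay at 0.19 on the same probe, below 0.30 to 0.32, and female C4 with male D4 at 0.050, above -0.35 to -0.31. On probe 1955, female C3 with male D3 lay at -0.94, below -0.00 to 0.16, and female D3 with male D3 at -0.67, below -0.04 to 0.06. These 6 values are grouped here because they fell on probes 656, 1893 and 1955. Those probes were set apart by wide ranges between males in the same cross means, so nothing is read from where the values fell. Males D3 and D4 are different animals of different blocks, so their crosses are not counted together. Because tbr was chosen by differences between males, no share of males is read from these values.

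The remaining values fell on probes 1850 and 1711 and on tbr as a mean of probes. Probe 1850 put female D3 with male B3 at 0.062, above -0.11 to -0.09. Probe 1711 put female A3 with male C3 at 0.23, above 0.02 to 0.04. For tbr as a mean of probes at 12C, replicate 2 of female B3 with male B3 lay at 0.26, above the other 7 cultures of that male at -0.07 to 0.08. Replicate 1 of female C4 with male D4 lay at 0.012, below the other cultures of that male at 0.19 to 0.34.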

How the results depend on the processing

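Of 309 values recomputed under alternatives, 248 kept their direction and side of the threshold, or moved by less than the replicate SD; the cause of the other changes was not tested unless the alternative itself shows it. The range of tbr between males in block 4, 0.53, became 0.094 with the brightest probe (1955), 0.12 with the median of probes, 0.41 at 18C alone, 0.12 without probe 656 and 0.073 without probes 656, 1893 and 1955, the last 2 chosen after seeing the data. By single probe it was 2.79 (656), 0.087 (178), 0.37 (1893), 0.094 (1955), 0.11 (1850) and 0.045 (1711). In block 3 the range, 0.35, became 0.62 with the brightest probe, 0.22 with the median of probes and 0.14 without probes 656, 1893 and 1955, and by single probe 0.22 (656), 0.11 (178), 0.84 (1893), 0.62 (1955), 0.20 (1850) and 0.18 (1711). Neither range moved by more than the replicate SD when any 1 female or replicate was left out.

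The dam-by-sire F of tbr, 1.93, was called at 3.51 and 4.34 in the non-normalized table centred or quantile normalized, at 4.83 with array medians removed, at 3.42 with the brightest probe, and by probe at 7.13 (656), 12.7 (1893) and 3.36 (1955). It ran from 1.32 to 2.65 with a replicate left out. The dam F, 5.87, lost its call at 2.26 and 1.98 in the non-normalized table, at 1.27 with array medians removed, at 3.27 in block 3 alone and, by probe, at 2.33 (656) and 2.47 (1893), and ran from 3.07 to 4.32 with a replicate left out. The panel's dam calls fell from 60 to 26 and 35 without replicate 1 and 2 and to 27 and 44 in block 3 and block 4 alone.

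No temperature change of tbr was called, and its sign turned for 18C against 12C with the brightest probe (-0.013), by probe 178 (-0.040) and probe 1955 (-0.013), and it ran from -0.0060 to 0.069 with a replicate left out. For 18C against 15C the difference was 0.017 in the centred non-normalized table, 0.016 (656), 0.013 (1893) and 0.030 (1711) by probe, from -0.065 to 0.040 with a replicate left out, and -0.10 and called for probe 178. The departure of 15C was -0.0041 in the centred non-normalized table and from -0.0050 to 0.062 with a replicate left out. The stage slope, 0.18, was -0.091 with the median of probes, -0.091 in block 3, -0.12 with sampling time as a covariate, and by probe -0.11 (178), -0.040 (1893) and -0.050 (1850). The slope on stage SD, -0.01, was 0.12 in the centred non-normalized table, 0.071 with array medians removed, 0.36 with the brightest probe, 0.0035 in block 3, from -0.34 to 0.51 with a replicate left out, and by probe 0.55 (656), 0.10 (178), 0.57 (1893) and 0.36 (1955).

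Replicate numbers did not pair the cultures, and with them as a replicate block the change from 12C to 18C was 0.03 and the panel's calls for it stayed at 13; the dam F of tbr was 8.73 and its dam-by-sire F 2.39 (adjusted p = 0.0806). Depth of signal limits Otp, Not, Alx1 and ficolin, which lay near the negative controls, then snail and Ets1 and the low crosses of probe 656, where heights near the negative controls have no firm order.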
